A study of Homo sapiens with 24 samples.

Results

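CD86 is a costimulatory ligand that antigen-presenting cells show to T cells, and it was studied here together with 8 genes of immune checkpoints, CD80, CD40, ICOSLG, CD274, LGALS9, CD47, SIRPA and HAVCR2. The 9 genes were chosen by name, as ligands and receptors of immune checkpoints, and were taken from the gene table by symbol, among 38048 genes in all. Their RNA was measured in MV4-11, a human line of acute myeloid leukaemia with the MLL-AF4 fusion, grown in culture. The study asked which expression changes accompany the joint action of a PRMT5 inhibitor and an LSD1 inhibitor on these cells.

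Each of 8 groups had 3 libraries of poly(A) RNA, named A, B and C. The treated groups received 3 nM PRT220, which inhibits PRMT5, 10 nM GSK-LSD1, which inhibits LSD1, or both. Other groups received MS023, which blocks the type I enzymes among the arginine methyltransferases, the pair of MS023 and GSK-LSD1, the compound MC4455 or the compound MC4491. The control group received DMSO. The design text gives 3 days for the DMSO, PRT220 and GSK-LSD1 groups and the combination of both inhibitors. The labels used here give neither dose nor time for MS023, MS023 with GSK-LSD1, MC4455 or MC4491, and they write LSD1 for the agent that the design text calls GSK-LSD1. All groups carry the genotype label PRMT5 +/+. All libraries come from this 1 cell line, so no response of a T cell or a macrophage was measured. The labels do not say whether the 3 libraries of a group came from separate cultures, and p-values then measure only the spread between these libraries.

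T cells need a costimulatory signal beside the antigen. CD80 and CD86 give it through CD28 and are also bound by the inhibitory receptor CTLA4, ICOSLG acts through ICOS, and CD40 is the receptor through which helper T cells license an antigen-presenting cell. CD274 (PD-L1) inhibits T cells through PD-1. LGALS9 encodes galectin-9, a ligand of the inhibitory receptor TIM-3, which HAVCR2 encodes and which acute myeloid leukaemia stem cells also carry. CD47 is the signal that keeps macrophages from engulfing a cell, and SIRPA is its receptor on myeloid cells. LSD1, encoded by KDM1A, is a histone demethylase that serves the repressors GFI1 and GFI1B in myeloid cells, and PRMT5 methylates arginines, among others in splicing factors.

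Promoter sequences are shown for CD86, which changed most, for CD274, which was nearly silent, and for CD47, whose small rises were called with every treatment except MS023 alone. They come from RefSeq (GRCh38.p14) and span 250 bases before to 50 bases after a gene start, each on the strand of its gene. RefSeq promoters were found for 6 of the 9 genes, with 2 for CD86. Capitals mark matches on either strand to motifs that were chosen after the promoters had been seen: the PU.1 and ETS core GAGGAA, the C/EBP motif TTGCNNAA, the GFI1 core AAATCA, the gamma-activated site TTCNNNGAA and the interferon-stimulated element, which is GAAA, any 2 bases and GAAA again.
CD86 first promoter: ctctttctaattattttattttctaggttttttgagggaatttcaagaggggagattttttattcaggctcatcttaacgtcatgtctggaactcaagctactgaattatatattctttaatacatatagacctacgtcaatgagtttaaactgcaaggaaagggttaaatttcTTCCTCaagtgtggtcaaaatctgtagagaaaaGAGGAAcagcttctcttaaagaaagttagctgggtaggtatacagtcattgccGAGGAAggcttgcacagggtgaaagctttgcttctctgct
CD86 second promoter: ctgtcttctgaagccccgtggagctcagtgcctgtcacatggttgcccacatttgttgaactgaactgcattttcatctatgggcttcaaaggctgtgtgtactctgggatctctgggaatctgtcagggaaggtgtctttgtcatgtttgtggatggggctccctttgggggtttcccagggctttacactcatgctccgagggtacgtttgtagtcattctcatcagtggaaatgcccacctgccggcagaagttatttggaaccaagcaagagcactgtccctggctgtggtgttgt
CD274 promoter: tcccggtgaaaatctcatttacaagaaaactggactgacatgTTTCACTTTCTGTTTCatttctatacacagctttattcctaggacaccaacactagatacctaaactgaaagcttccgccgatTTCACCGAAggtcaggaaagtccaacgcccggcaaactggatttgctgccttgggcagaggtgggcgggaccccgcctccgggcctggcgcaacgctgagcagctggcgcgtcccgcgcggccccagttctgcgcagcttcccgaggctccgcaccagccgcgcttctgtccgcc
CD47 promoter: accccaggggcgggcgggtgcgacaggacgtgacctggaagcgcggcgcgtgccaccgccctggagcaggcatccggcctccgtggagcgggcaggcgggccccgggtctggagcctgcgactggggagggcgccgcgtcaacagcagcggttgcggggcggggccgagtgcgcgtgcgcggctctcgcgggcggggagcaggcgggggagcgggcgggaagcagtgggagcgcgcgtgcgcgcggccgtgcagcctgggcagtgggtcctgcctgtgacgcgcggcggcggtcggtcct
The windows lie at chr3:122055112-122055411 and chr3:122077534-122077833 (CD86, plus strand), chr9:5450292-5450591 (CD274, plus strand) and chr3:108090982-108091281 (CD47, minus strand). The first CD86 window held 3 matches to GAGGAA, which start at positions -76, -43 and 11 from the gene start and do not overlap. GAGGAA occurred in 27.9% of 35116 promoter windows of this length, and 0.649% of them held 3 or more matches. This cut-off equals the number found in the first CD86 window, as the motif was chosen with the promoters seen. The share is therefore no test of whether that window is unusual. The second CD86 window and the CD47 window held none of the 5 motifs. The CD274 window held 2 overlapping matches to the interferon-stimulated element on the minus strand, at -208 and -202, a motif present in 3.57% of windows, and TTCNNNGAA at -125, present in 7.66%. TTGCNNAA occurred in 10.5% of windows and in none of the members' windows, and AAATCA in 13.2%, that of CD80 among them. The LGALS9 window held the interferon-stimulated element on the minus strand at -9. A match describes letters only and was not tested for binding.

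Levels are given as CPM, the count of a gene per 1e6 counts of its library after TMM scaling, from the estimated counts that the authors deposited. The quasi-likelihood test of edgeR was run on the 16640 genes that passed the count filter, and a gene counted as changed where its p, adjusted over all of them by Benjamini-Hochberg, was under 0.05. Library totals ran from 32495446 to 61090593 estimated counts. The 11 defining markers of myeloid leukaemia cells, PTPRC, CD33 and SPI1 among them, were all expressed in every group. In 8 libraries RRP9, a ribosome biogenesis gene, lay under 5 CPM, while it lay between 29.1 and 36.2 CPM in the other 16. For RRP9 these CPM are those before TMM scaling. These were all 3 PRT220 libraries, MS023 A and C, PRT220 with GSK-LSD1 C, MS023 with GSK-LSD1 B and DMSO C. A term for this split shifted CD86 by 0.32 on the log2 scale (low minus other libraries, adjusted p 0.138), and where it ended or made a call of a member the value is given beside that call. PRT220 has no library with RRP9 above 5 CPM, so with this term it is set against DMSO C directly and against DMSO A and B through the split as estimated in the other groups. KDM1A had 110 ± 2.8 CPM with GSK-LSD1 and 123 ± 7.1 CPM with DMSO (SD, n = 3 each), and its transcript does not check an inhibitor of the protein.

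Of the 9 members, 7 passed the count filter, while CD80 and CD274 had too few counts to be tested. GSK-LSD1 raised 4 of the 7 tested members (CD86, CD47, HAVCR2 and LGALS9) and lowered none, in a comparison that called 17.6% of all genes higher and 15% lower (32.6% together). PRT220 with GSK-LSD1 also raised CD86, CD47, HAVCR2 and LGALS9, with 24.4% of all genes higher and 22.1% lower (46.5%). MS023 with GSK-LSD1, MC4455 and MC4491 each raised CD86, CD47 and HAVCR2, and MC4491 also lowered LGALS9. The share of all genes called was 25.1% higher and 23.3% lower with MS023 and GSK-LSD1 (48.4%), 18.5% and 19.2% with MC4455 (37.6%), and 15.5% and 15.2% with MC4491 (30.7%). PRT220 raised CD47 and lowered ICOSLG, with 13.8% of all genes higher and 11.1% lower (24.9%). MS023 changed 0 members by edgeR, in a comparison that called 0.889% of all genes higher and 1.36% lower (2.25%), and at an unadjusted p below 0.05 it had 1 member, SIRPA. DESeq2 also called 0 members with MS023. All 7 comparisons share the 3 DMSO libraries. Calls of LGALS9, ICOSLG and, except with MC4455, HAVCR2 were lost in some alternative runs, as was that of CD86 with MC4455. The HAVCR2 call with GSK-LSD1 was lost in most of them, as by DESeq2 (adjusted p 0.0859), and its libraries overlapped DMSO. No run that left out 1 library kept all 4 calls with GSK-LSD1, so that count is not firm. The median log2 fold change of the 7 tested members was 0.15 with GSK-LSD1, against 0.03 over all genes tested, and 0.13 with PRT220 and GSK-LSD1, against 0.04. With MS023 it was -0.02, against -0.00 over all genes tested.

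**Figure D1:**
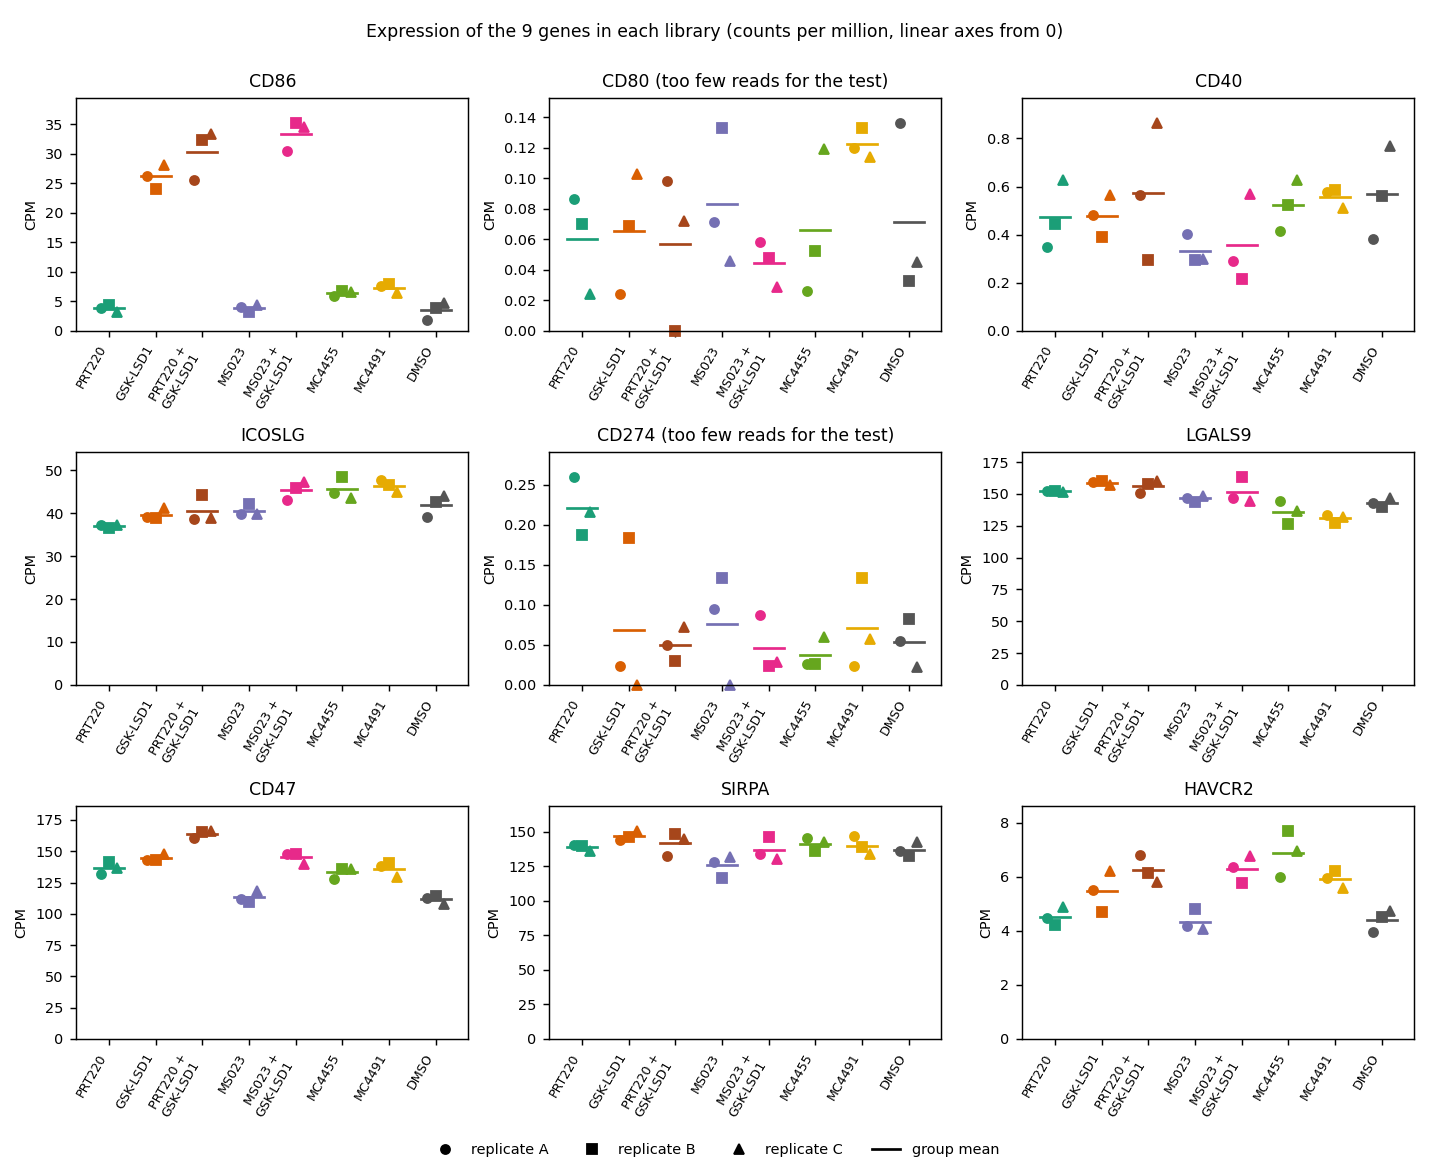
CPM after TMM scaling of each member (panels, each with its own linear axis from 0) in the 24 libraries, with treated groups at the left and DMSO at the right. Points are libraries, marker shapes are the letters A, B and C, and bars are group means. CD86 lies between 24.1 and 35.3 CPM in the 9 libraries that received GSK-LSD1, and between 1.88 and 7.93 CPM in the other 15.

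CD86 (ENSG00000114013, chromosome 3, 122055366 to 122121139, plus strand) was set apart by LSD1 inhibition. Its libraries A, B and C had 26.3, 24.1 and 28.1 CPM with GSK-LSD1, against 1.88, 3.79 and 4.78 CPM with DMSO. The libraries with PRT220 and GSK-LSD1 had 25.6, 32.3 and 33.3 CPM, and those with MS023 and GSK-LSD1 had 30.6, 35.3 and 34.5 CPM. All 9 libraries that received GSK-LSD1 lay above all 15 others, and DMSO A was the lowest library of the series. In counts, these are 1037 to 1476 per library with GSK-LSD1 alone or combined, against 69 to 230 with DMSO. The log2 fold change over DMSO was 2.89 with GSK-LSD1 (SE 0.20, 95% interval 2.47 to 3.31, adjusted p 4.6e-10), a fold of 7.42. It was 3.11 with PRT220 and GSK-LSD1 (2.68 to 3.53, adjusted p 1.1e-10) and 3.25 with MS023 and GSK-LSD1 (2.82 to 3.67, adjusted p 7.4e-11). All 3 calls held in every alternative run. With a term for the RRP9 split the values were 3.01, 3.12 and 3.26, and without DMSO A they were 2.62, 2.83 and 2.97. In bulk RNA, a higher share of cells with CD86 and more CD86 RNA per cell cannot be told apart.

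PRMT inhibitors alone left CD86 near the level of DMSO. The PRT220 libraries had 3.83, 4.32 and 3.20 CPM and the MS023 libraries 4.05, 3.25 and 4.40 CPM, both within the range of the DMSO libraries. The log2 fold change over DMSO was 0.10 with PRT220 (-0.33 to 0.54, adjusted p 0.778) and 0.15 with MS023 (-0.29 to 0.58, adjusted p 0.797). Adding GSK-LSD1 to PRT220 raised CD86 by 3.00 on the log2 scale over PRT220 alone, and adding it to MS023 raised it by 3.10 over MS023 alone. Against GSK-LSD1 alone, the combination with PRT220 differed by 0.22 (-0.16 to 0.59, adjusted p 0.501) with overlapping libraries. The combination with MS023 differed from GSK-LSD1 alone by 0.35 (-0.02 to 0.73, adjusted p 0.22), with its 3 libraries above the 3 of GSK-LSD1. A fit of only the groups compared called that last difference, at an adjusted p of 0.0226. The interaction on the log2 scale was 0.11 for PRT220 with GSK-LSD1 (-0.46 to 0.69) and 0.21 for MS023 with GSK-LSD1 (-0.37 to 0.78), and neither was called. These intervals leave room for both a smaller and a larger joint change than the sum of the single agents.

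MC4455 and MC4491 raised CD86 to a smaller extent. Its libraries had 5.97, 6.80 and 6.51 CPM with MC4455 and 7.60, 7.93 and 6.40 CPM with MC4491, against 1.88, 3.79 and 4.78 CPM with DMSO. Both groups lay above all DMSO libraries and overlapped each other. The log2 fold change over DMSO was 0.87 with MC4455 (0.44 to 1.29, adjusted p 0.00261) and 1.05 with MC4491 (0.63 to 1.48, adjusted p 0.000808). Without DMSO A these were 0.59 and 0.78, both still called. In a fit of only the groups compared, the MC4455 call was lost at an adjusted p of 0.0514. MC4455 minus MC4491 was -0.19 (-0.60 to 0.22) on the log2 scale, which does not show that the compounds act alike, and their doses and times are not in the labels. Of the 7 tested members, 0 differed between MC4455 and MC4491 by edgeR, by DESeq2 or at an unadjusted p below 0.05, in a comparison that called 0% of all genes.

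By mean CPM, CD86 was highest with MS023 and GSK-LSD1 (33.4 ± 2.5), followed by PRT220 with GSK-LSD1 (30.4 ± 4.2), GSK-LSD1 (26.2 ± 2.0), MC4491 (7.31 ± 0.80), MC4455 (6.43 ± 0.42), MS023 (3.90 ± 0.59), PRT220 (3.78 ± 0.56) and DMSO (3.49 ± 1.47; SD, n = 3 each). Neighbours in this order overlapped, except GSK-LSD1 with MC4491 and MC4455 with MS023. Most CD86 reads were assigned to CD86-202, which codes for 329 codons and starts in the first promoter window shown above. Its share of CD86 reads averaged 79.5 ± 4.5% with GSK-LSD1 and 88.1 ± 10.2% with DMSO, and CD86 passed the test of transcript usage in 0 of 7 comparisons with DMSO. CD86-203, which starts 3' of the second window, averaged 10.3 ± 7.6% with GSK-LSD1 and 2.66 ± 4.61% with DMSO, and it was at 0 in some libraries of both combinations with GSK-LSD1, of PRT220, of MS023 and of DMSO.

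The genes whose log2 CPM followed CD86 most closely over the 8 group means were SLC26A11, CLIP1, TNFAIP8, FCMR, PITPNC1, PPP1R16B, NQO2 and ANKRD26. Their Pearson's r was 0.994 to 0.996, over groups that share cell line and controls and of which 3 received the same inhibitor. FCMR, the receptor for IgM, averaged 22.8 CPM with GSK-LSD1, 24.5 CPM with PRT220 and GSK-LSD1 and 25.6 CPM with MS023 and GSK-LSD1, against 3.01 CPM with DMSO. Pearson's r does not measure the size of a change, and others of the 8 changed much less. CLIP1 averaged 127 CPM with GSK-LSD1 and 60.1 CPM with DMSO, and ANKRD26 averaged 30.2 and 21.2 CPM. Among the members, r with CD86 was 0.82 for CD47, 0.64 for HAVCR2, 0.54 for LGALS9, 0.50 for SIRPA, 0.15 for ICOSLG and -0.09 for CD40.

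Markers of dendritic cells and monocytes, cells in which CD86 is normally found, changed only in part with it. With GSK-LSD1, 16 of 24 tested markers of a list of 26 rose and 5 fell, with a median log2 change of 1.01. That comparison called 17.6% of all genes higher and 15% lower. Lists of antigen presentation genes and of defining myeloid markers also hold 4 of the 26, and no marker of the 26 was at 0 in all libraries. The 4 markers with the largest change all rose, while the 5 that fell changed less and are not described singly here. Of the markers that rose, the integrin ITGAM (CD11b) averaged 26.4 ± 3.0 CPM with GSK-LSD1 and 3.03 ± 0.80 CPM with DMSO. The scavenger receptor CD163, which also rose, averaged 1.18 CPM with GSK-LSD1 and was listed at 0 in every DMSO library. The summed level of the list was 4094 to 4261 CPM with GSK-LSD1, 3632 to 3976 CPM with PRT220 and GSK-LSD1 and 3633 to 4125 CPM with MS023 and GSK-LSD1, against 2245 to 2272 CPM with DMSO. Lysozyme (LYZ) made up much of this difference, with 2403 to 2557 CPM with GSK-LSD1 and 894 to 954 CPM with DMSO, and the other 25 markers summed to 1691 to 1784 CPM with GSK-LSD1 and 1291 to 1371 CPM with DMSO. With LYZ included, the sum was 2521 to 2577 CPM with PRT220, where 13 markers rose and 2 fell while CD86 was not called. MC4455 had 13 higher and 2 lower, MC4491 had 14 higher and 0 lower, and MS023 had 2 higher and 1 lower. The shares of all genes called in these comparisons are given with the members above. The part of these markers in the CD86 result was not tested.

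**Figure D2:**
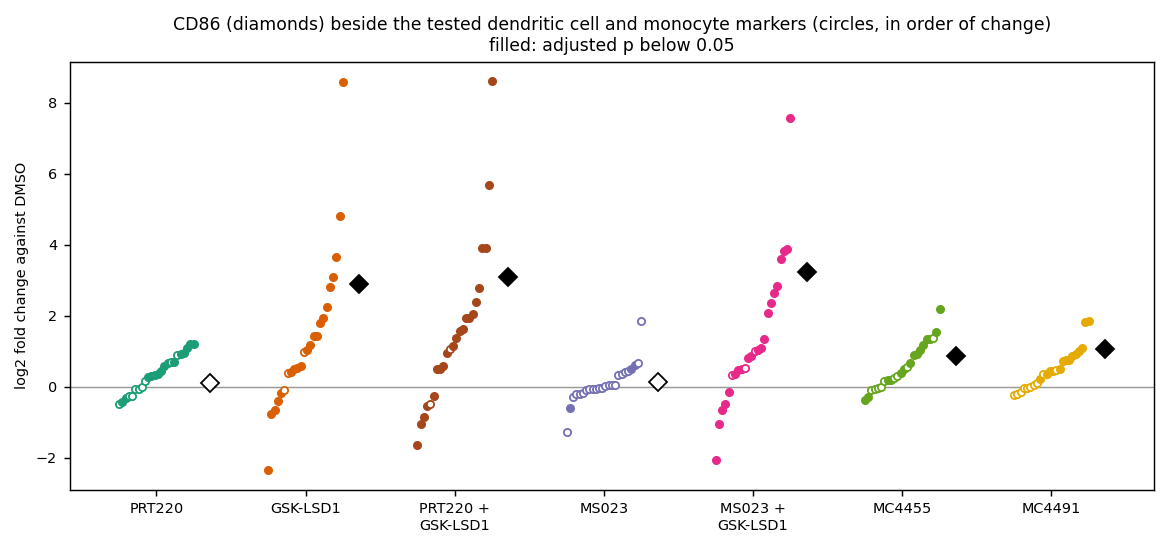
Log2 fold change over DMSO of CD86 (diamonds) and of the 24 tested dendritic cell and monocyte markers (circles, sorted by change) in the 7 treatments, filled where the adjusted p was below 0.05. CD86 stands at 2.89 to 3.25 with GSK-LSD1 alone or combined and at 0.10 and 0.15, not called, with PRT220 and MS023, and the highest circle in each group with GSK-LSD1 is CD163, which was at 0 in DMSO, so its fitted change is no measured fold.

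Markers of other cell types stayed low. The 13 T and NK cell markers summed to 38.9 to 40.1 CPM with GSK-LSD1 and 30.98 to 34.7 CPM with DMSO, and 2 of 7 tested rose. The 7 B cell markers, whose lineage also carries CD86 and CD40, summed to 3.64 to 5.62 CPM over all libraries, MS4A1 and FCRL1 were at 0 in every library, and of 5 tested 1 fell with PRT220 and GSK-LSD1 and 1 rose with MS023 and GSK-LSD1. The 8 epithelial and fibroblast markers summed to 19.9 to 23.3 CPM with GSK-LSD1 and 15.1 to 17.0 CPM with DMSO, KRT19 was at 0 in every library, and 3 of 5 tested rose with GSK-LSD1. The 13 mitochondrial transcripts summed to 3705 to 6332 CPM, and 2 of them, MT-ND6 and MT-CYB, fell with PRT220, at -3.03 and -3.41 on the log2 scale, while with the RRP9 term they stood at 0.09 and 0.30 and were not called. A list of 12 genes held 10 of the LSD1-CoREST-GFI1 complex and the myeloid transcription factors SPI1 and CEBPA. With GSK-LSD1 the repressors GFI1 and GFI1B rose, while KDM1A, HDAC2 and CEBPA fell, by 0.15, 0.15 and 0.62 on the log2 scale. Of the 11 defining myeloid markers 3 rose and 4 fell, CEBPA again among them. In the comparison of GSK-LSD1 with DMSO 17.6% of all genes were called higher and 15% lower.

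Among the other costimulatory members, CD80 was barely detected and ICOSLG moved by small amounts. CD80 (ENSG00000121594, chromosome 3, 119524293 to 119559602), which shares CD28 and CTLA4 with CD86, had 68 estimated counts over all 24 libraries, at most 5 in a library and 0 in PRT220 with GSK-LSD1 B. The highest level was 0.136 CPM, in DMSO A, and no difference in CD80 was detectable at this depth. ICOSLG (ENSG00000160223, chromosome 21, 44217014 to 44240966), the ligand of ICOS, had 37.2, 36.5 and 37.3 CPM with PRT220, against 39.1, 42.7 and 43.9 CPM with DMSO. The PRT220 libraries lay below all DMSO libraries, with ICOSLG at a log2 fold change of -0.18 (-0.30 to -0.06, adjusted p 0.0225). That call was lost in 5 of 14 alternatives, at adjusted p 0.056 without PRT220 B, 0.0582 without DMSO B, 0.0846 without DMSO C, 0.0532 with the RRP9 term and 0.053 in a fit of only the groups compared.

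With MS023 and GSK-LSD1, ICOSLG had 43.2, 45.9 and 47.2 CPM, against 39.8, 42.1 and 39.8 CPM with MS023 and 39.1, 38.8 and 41.2 CPM with GSK-LSD1. The combination lay above both single agents in every library, by 0.16 over MS023 (adjusted p 0.0246) and by 0.19 over GSK-LSD1 (adjusted p 0.0315) on the log2 scale. Against MS023, the call was lost without any of MS023 A, MS023 C, the combination B or the combination C (adjusted p 0.0753, 0.0785, 0.0525 and 0.111). It was also lost without the count filter (0.0551), in a fit of only the groups compared (0.0674) and in the libraries of either side of the RRP9 split alone (0.0864 low, 0.497 other). Against GSK-LSD1, the call was lost without GSK-LSD1 A, GSK-LSD1 B or the combination C (0.0771, 0.0988 and 0.152) and without the low RRP9 libraries (0.0853). The interaction of MS023 with GSK-LSD1 on ICOSLG was 0.24 (unadjusted p 0.00609, adjusted p 0.526) and that of PRT220 with GSK-LSD1 was 0.21 (unadjusted p 0.0153, adjusted p 0.336), neither called. With MC4491, ICOSLG had 47.8, 46.6 and 44.9 CPM, above all DMSO libraries, at a log2 fold change of 0.15 (adjusted p 0.0516) that passed without DMSO C (adjusted p 0.0406) or MC4491 C (0.0468). A near-identical gene model, FP565260.3 (ENSG00000277117), shares 34.4% of the distinct 31-base words of ICOSLG transcripts, and it held 23.7% to 33.3% of the reads assigned to either gene. Its share was 27.2% to 30.5% with PRT220 and 30.4% to 33.0% with DMSO. It was 27.0% to 28.9% with MS023 and GSK-LSD1, 30.7% to 33.3% with MS023 and 27.9% to 30.3% with GSK-LSD1. The share with this combination thus lay below that with MS023 in every library. How much of the ICOSLG difference between them comes from this split was not tested. ICOSLG levels are uncertain to the extent that reads were split between both genes.

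CD40 (ENSG00000101017, chromosome 20, 46118272 to 46129863), the receptor for CD40 ligand on antigen-presenting cells, had 9 to 36 estimated counts per library. It had 0.481, 0.390 and 0.566 CPM with GSK-LSD1, against 0.382, 0.560 and 0.767 CPM with DMSO, and these libraries overlapped. Its log2 fold change with GSK-LSD1 was -0.26 (-1.03 to 0.52, adjusted p 0.638), so no difference was detectable at this depth. No comparison of the 14 run called CD40. The furthest from 0 was MS023 over DMSO, at -0.78 (-1.58 to 0.02, adjusted p 0.344). MS023 with GSK-LSD1 over DMSO was -0.68 (adjusted p 0.151) and passed only without its library C, at -1.18 (adjusted p 0.0308).

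CD274 (ENSG00000120217, chromosome 9, 5450503 to 5470566), which encodes PD-L1, had 78 estimated counts over all 24 libraries. It had 12, 8 and 9 counts with PRT220 (0.260, 0.187 and 0.217 CPM), against 2, 5 and 1 counts with DMSO (0.0545, 0.0824 and 0.0226 CPM). The 3 PRT220 libraries lay above the 3 DMSO libraries. Without the count filter, edgeR gave a log2 difference of 1.95 (p 0.0387, adjusted p 0.177), so the difference did not pass the correction, and DESeq2 gave an unadjusted p of 0.0545 with no adjusted p. The GSK-LSD1 libraries had 1, 8 and 0 counts, and the libraries with PRT220 and GSK-LSD1 had 2, 1 and 3. The second PD-1 ligand, PDCD1LG2, reached at most 0.144 CPM.

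LGALS9 (ENSG00000168961, chromosome 17, 27629798 to 27649560) encodes galectin-9 and moved by small amounts. It had 159, 161 and 157 CPM with GSK-LSD1 and 151, 158 and 160.4 CPM with PRT220 and GSK-LSD1, against 143, 139 and 147 CPM with DMSO. Both groups lay above all DMSO libraries, by 0.15 (0.06 to 0.24, adjusted p 0.0128) and 0.13 (0.03 to 0.22, adjusted p 0.0237) on the log2 scale. MC4491 libraries, with 133, 127 and 132 CPM, lay below all DMSO libraries, by -0.13 (-0.22 to -0.04, adjusted p 0.0334). The GSK-LSD1 call was lost without GSK-LSD1 A, GSK-LSD1 B or DMSO B (adjusted p 0.0684, 0.0724 and 0.10) and without the count filter (0.0542). The call of the combination was lost without DMSO A, DMSO B, the combination B or the combination C (0.0524, 0.12, 0.0698 and 0.0907). It was also lost by DESeq2 (0.0502), with RLE size factors (0.055), without the count filter (0.0751) and in the libraries of either side of the RRP9 split alone (0.222 low, 0.0727 other). The MC4491 call was lost without DMSO A, DMSO C, MC4491 B or MC4491 C (0.0764, 0.0715, 0.119 and 0.0561), with the RRP9 term (0.0571), without the low RRP9 libraries (0.102), with library totals as the only scaling (0.0677) and in a fit of only the groups compared (0.0541). MC4455, with 144, 126 and 137 CPM, was at -0.08 (adjusted p 0.193) and passed without its library A (-0.12, adjusted p 0.0432). LGALS9B and LGALS9C, which share 8.78% and 16.2% of the 31-base words of LGALS9, held 151 and 347 counts over all libraries, against 143073 for LGALS9.

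HAVCR2 (ENSG00000135077, chromosome 5, 157085832 to 157142869) encodes TIM-3. It had 6.80, 6.12 and 5.81 CPM with PRT220 and GSK-LSD1, 6.34, 5.76 and 6.77 CPM with MS023 and GSK-LSD1, 5.97, 7.69 and 6.95 CPM with MC4455 and 5.94, 6.20 and 5.58 CPM with MC4491, against 3.95, 4.52 and 4.72 CPM with DMSO. All 12 treated libraries of these groups lay above the 3 DMSO libraries. The log2 fold changes were 0.50 (adjusted p 0.00124), 0.51 (0.00109), 0.64 (0.000298) and 0.43 (0.00955), and the MC4491 call was lost without DMSO A (0.36, adjusted p 0.0528). With GSK-LSD1 alone it had 5.51, 4.70 and 6.22 CPM, which overlapped DMSO, and the call at 0.31 (adjusted p 0.0433) held in 1 of 14 alternatives. It was among others lost on leaving out DMSO A, DMSO B, DMSO C, GSK-LSD1 A or GSK-LSD1 C (adjusted p 0.167, 0.0954, 0.0556, 0.129 and 0.223) and with the RRP9 term (0.0808). PRT220 alone (4.48, 4.23 and 4.86 CPM) and MS023 alone (4.17, 4.79 and 4.05 CPM) were not called. In only the libraries with low RRP9, which leave 1 library of each combination and 1 of DMSO, the combinations gave 0.27 (adjusted p 0.318) and 0.26 (adjusted p 0.356) over DMSO. The combinations exceeded PRT220 alone by 0.46 (adjusted p 0.00348) and MS023 alone by 0.54 (adjusted p 0.000964). Among the low RRP9 libraries alone, with 1 library of each combination, these were 0.34 (adjusted p 0.142) and 0.46 (adjusted p 0.0717), and with the RRP9 term 0.40 (adjusted p 0.0225) and 0.50 (adjusted p 0.00194). In the other libraries, with 1 of MS023, the second was 0.45 (adjusted p 0.106). Among the 10 tested genes (of 12) of TIM-3 ligands, the TIM family and kinases that act with it, 4 rose and 1 fell with GSK-LSD1. The members HAVCR2 and LGALS9 were themselves among the 4 that rose, and 17.6% of all genes were called higher and 15% lower. The kinase FYN, which binds the tail of TIM-3, fell by 1.03 on the log2 scale (3.73 ± 0.19 CPM with GSK-LSD1 and 7.62 ± 1.52 CPM with DMSO), and the kinase LYN rose by 0.65.

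CD47 (ENSG00000196776, chromosome 3, 108043094 to 108091862), which tells macrophages to spare a cell, was higher in 6 of 7 treatments. Its libraries had 131, 141 and 137 CPM with PRT220, 143, 143 and 148 CPM with GSK-LSD1 and 161, 165 and 166 CPM with PRT220 and GSK-LSD1, against 113, 115 and 108 CPM with DMSO. They had 148, 148 and 139.7 CPM with MS023 and GSK-LSD1, 128, 136 and 136 CPM with MC4455 and 139, 140.4 and 129 CPM with MC4491. All 18 of these libraries lay above the 3 DMSO libraries, while MS023 alone (112, 109 and 118 CPM) overlapped them. On the log2 scale, CD47 rose by 0.29 with PRT220 (0.21 to 0.37, adjusted p 1.8e-05), by 0.37 with GSK-LSD1 (0.29 to 0.45, adjusted p 2.7e-07) and by 0.55 with both (0.47 to 0.64, adjusted p 4.4e-10). It rose by 0.38 with MS023 and GSK-LSD1, by 0.25 with MC4455 and by 0.28 with MC4491, and was 0.02 with MS023 (-0.07 to 0.10, adjusted p 0.886). These 6 calls held in every alternative run, and with the RRP9 term CD47 rose by 0.28 with PRT220 (adjusted p 0.000132).

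The combination of PRT220 with GSK-LSD1 gave the highest CD47 of the series. Its 3 libraries lay above those of each single agent, by 0.27 over PRT220 (adjusted p 2.1e-05) and by 0.18 over GSK-LSD1 (0.10 to 0.27, adjusted p 0.00326) on the log2 scale. It was the only member called against GSK-LSD1 alone, in a comparison that called 15.3% of all genes, and 3 members were called against PRT220 alone, with 38.2% of all genes called. The interaction was -0.11 (-0.22 to 0.01, adjusted p 0.565), so the joint rise did not differ from the sum of both on the log2 scale beyond its error. MS023 with GSK-LSD1 exceeded MS023 by 0.36 and GSK-LSD1 by 0.01 (adjusted p 0.934). In those comparisons 4 members and 1 member were called, with 40% and 10.9% of all genes called. Across both interactions 0 members were called by edgeR or DESeq2 and 1 member in each, ICOSLG, had an unadjusted p below 0.05, with 0.541% and 0% of all genes called.

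SIRPA (ENSG00000198053, chromosome 20, 1894167 to 1940592), the receptor for CD47 on myeloid cells, had 144, 146 and 151 CPM with GSK-LSD1 and 128, 117 and 132 CPM with MS023, against 136, 133 and 142 CPM with DMSO. The GSK-LSD1 libraries lay above and the MS023 libraries below all DMSO libraries, but no comparison called SIRPA. The log2 fold change was 0.10 with GSK-LSD1 (adjusted p 0.157) and -0.12 with MS023 (unadjusted p 0.0281, adjusted p 0.263). With the RRP9 term, both passed, at 0.14 (adjusted p 0.0185) and -0.16 (adjusted p 0.043), and the term itself shifted SIRPA by 0.11 (adjusted p 0.0549). MS023 with GSK-LSD1 exceeded MS023 by 0.12 (adjusted p 0.0689), which passed without MS023 C (0.0377) or the combination C (0.0418), with library totals as the only scaling (0.0395) and with the RRP9 term (0.16, adjusted p 0.006). With that term the combination was also called lower than GSK-LSD1 alone, at -0.14 (adjusted p 0.0322). SIRPB1, which shares 13.0% of the 31-base words of SIRPA, held 26827 counts over all libraries, so reads may be split between both.

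**Figure D3:**
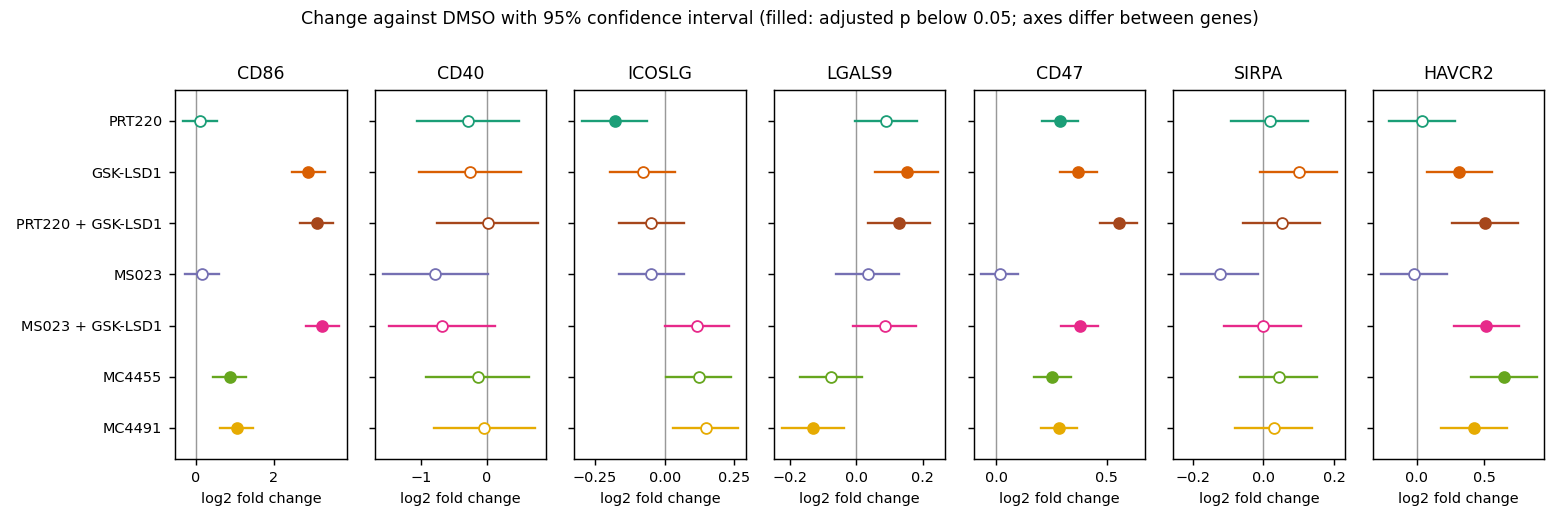
Log2 fold change over DMSO of the 7 tested members in the 7 treatments, with 95% intervals from edgeR's quasi-likelihood fit. Filled points passed an adjusted p of 0.05. CD86 stands at 2.89 to 3.25 in the 3 groups with GSK-LSD1, and CD47 at 0.25 to 0.55 in all groups except MS023 (0.02).

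Transcript usage is the share of a gene's reads assigned to each of its transcripts. Of the 6 members tested for it, 3 changed with PRT220 (LGALS9, CD47 and SIRPA), in a test by limma's diffSplice that called 16.3% of 11428 genes. PRT220 with GSK-LSD1 called LGALS9, CD47, SIRPA and ICOSLG, with 19.6% of genes called. With the RRP9 term the 3 PRT220 calls had adjusted p 0.000164 for LGALS9, 0.000462 for CD47 and 0.0342 for SIRPA. GSK-LSD1 and MS023 called 0 members by diffSplice, with 5.17% and 4.39% of genes called, and at an unadjusted p below 0.05 they had 1 (CD47) and 2 (LGALS9 and CD47). CD80, CD40 and CD274 had too few reads for this test. MC4455 and MC4491 each called LGALS9 and CD47, with 14.7% and 12.4% of genes, and MS023 with GSK-LSD1 called CD47, with 13.4%.

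LGALS9 had the lowest adjusted p of the members with PRT220 (2.3e-06). LGALS9-202, a coding transcript of 246 codons, held 33.2%, 32.4% and 31.6% of LGALS9 reads with PRT220, against 22.1%, 22.2% and 24.2% with DMSO. LGALS9-203, which codes for 355 codons, held 8.93%, 8.25% and 5.67% with PRT220, against 13.2%, 13.4% and 14.1% with DMSO. Neither pair of groups overlapped, and the transcripts moved in opposite directions (adjusted p 5.3e-05 and 2e-05 by diffSplice). The shorter transcript lacks the coding exons of LGALS9-203 at 27643525 to 27643620 and 27647270 to 27647432 on chromosome 17, which are 96 and 163 bases long, and its coding sequence stops at 27648911 in the last exon, while that of LGALS9-203 goes on to 27648979. LGALS9-215, annotated as a retained intron, averaged 18.6 ± 1.4% with PRT220 and 13.4 ± 1.0% with DMSO (adjusted p 0.00687), and LGALS9-205, a target of nonsense-mediated decay, averaged 15.4 ± 1.2% and 21.1 ± 1.6% (adjusted p 0.0127). With PRT220 and GSK-LSD1, LGALS9-202 held 27.6%, 31.9% and 32.2% and LGALS9-203 held 8.00%, 9.19% and 10.3%, again with no overlap with DMSO. GSK-LSD1 alone left them at 21.7 ± 1.7% and 13.5 ± 1.4%, while MC4455 had LGALS9-203 at 8.48%, 9.04% and 7.24% (adjusted p 0.000629). With MS023 the gene-level usage test passed without MS023 C (adjusted p 0.0473). The gene-level call with MC4491 was lost without DMSO B, MC4491 A or MC4491 C (adjusted p 0.446, 0.127 and 0.0782).

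CD47 shifted towards its main coding transcript with PRT220. CD47-201, with 305 codons, held 82.1%, 79.2% and 78.9% of CD47 reads with PRT220, against 74.3%, 71.0% and 69.4% with DMSO (adjusted p 0.000141), and 74.6%, 77.9% and 79.9% with PRT220 and GSK-LSD1. The retained-intron transcript CD47-204 held 9.28%, 10.7% and 11.7% with PRT220, against 14.5%, 15.5% and 14.3% with DMSO (adjusted p 0.0768). With PRT220 the groups did not overlap for either transcript, while only CD47-201 passed the test. With PRT220 and GSK-LSD1 the CD47 usage call held in every alternative run. With MS023 and GSK-LSD1, MC4455 and MC4491 it depended on single libraries. The test also passed without DMSO A with GSK-LSD1 and with MS023 (adjusted p 0.0206 and 0.0498) and without MS023 C (0.0491). These 3 calls were lost without DMSO B (adjusted p 0.0841 with MS023 and GSK-LSD1, 0.134 with MC4455 and 0.116 with MC4491) and without DMSO C (0.148, 0.228 and 0.194). Leaving out a treated library also ended them, with MS023 and GSK-LSD1 A or C (0.185 and 0.0515), MC4455 A, B or C (0.0512, 0.0932 and 0.0692) or MC4491 A (0.166), and so did the RRP9 term with MC4455 (0.0673) and MC4491 (0.0543).

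SIRPA-202 held 27.6%, 23.2% and 27.9% of SIRPA reads with PRT220, against 16.3%, 13.9% and 17.6% with DMSO, with no overlap (adjusted p 0.00894). With PRT220 and GSK-LSD1 it held 19.5%, 36.2% and 28.5%, all above the DMSO libraries, with library B the highest. SIRPA-201, SIRPA-202 and SIRPA-203 share 1 coding sequence of 504 codons and differ in where they start, at 1894783, 1895296 and 1894167 on chromosome 20. The gene-level calls were lost without DMSO B, at 0.0989 with PRT220 and 0.0596 with PRT220 and GSK-LSD1, and the second also without the combination B (0.105). With MC4491, SIRPA usage passed without MC4491 B (0.00973). The ICOSLG usage call with PRT220 and GSK-LSD1 was lost without DMSO A, DMSO C, the combination A or the combination C (adjusted p 0.168, 0.0823, 0.106 and 0.168).

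**Figure D4:**
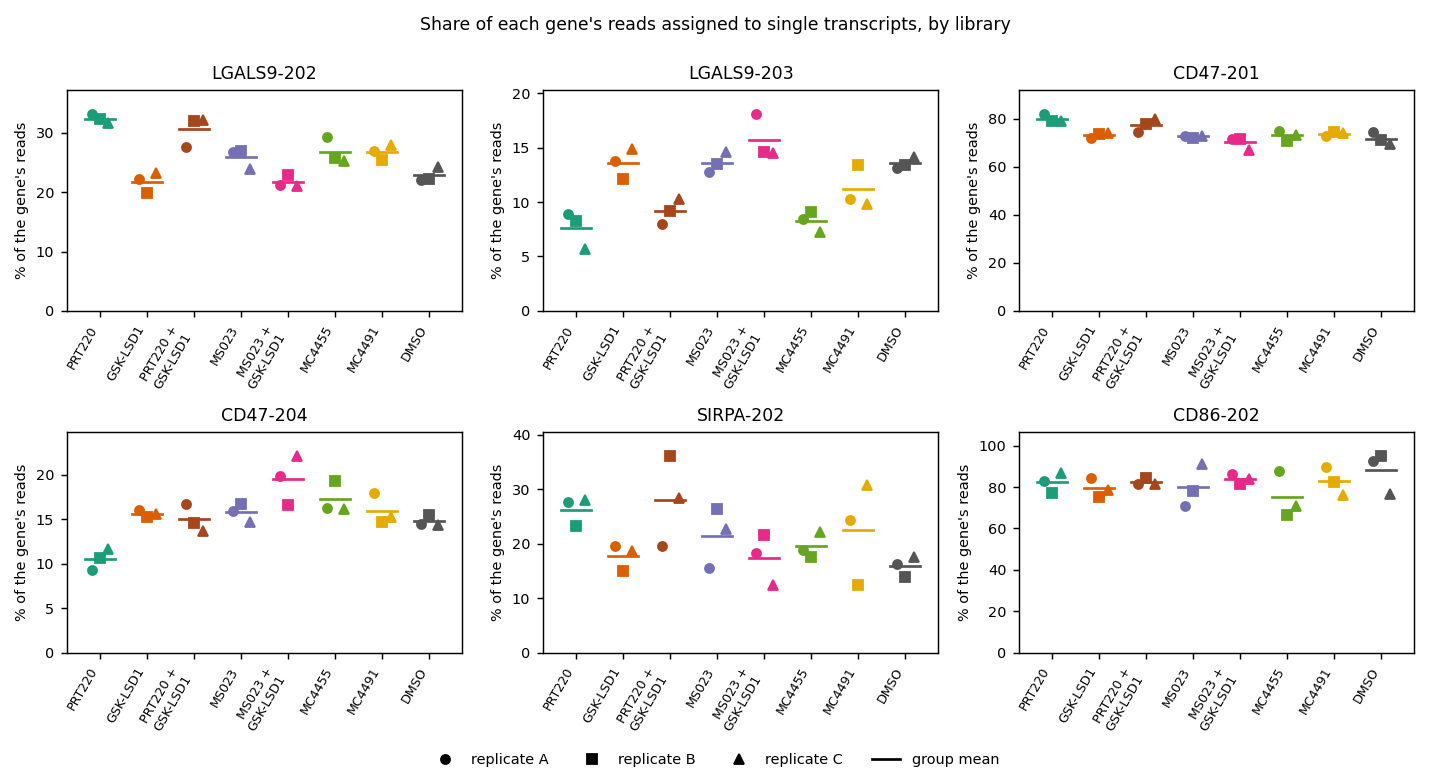
Share of a gene's reads (percent, axes from 0) assigned to named transcripts of LGALS9, CD47, SIRPA and CD86 in the 24 libraries, with treated groups at the left and DMSO at the right. Points are libraries and bars are group means. LGALS9-202 lies at 31.6% to 33.2% with PRT220 and at 22.1% to 24.2% with DMSO, while LGALS9-203 lies at 5.67% to 8.93% with PRT220 and at 13.2% to 14.1% with DMSO.

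Lists of genes around the members are read beside the share of all genes called in each comparison, which is given with the members above. Among B7 family members and other ligands for T cells, 7 of 23 tested (of 29) rose and 5 fell with GSK-LSD1. The members CD86 and LGALS9 were among those that rose, and 17.6% of all genes were called higher and 15% lower. The list's median log2 change was 0.05, against 0.03 over all genes. Beside CD86, the OX40 ligand TNFSF4 rose by 0.75 (adjusted p 0.00574). The natural killer cell ligand NCR3LG1 fell by 0.75 (120 ± 3.1 CPM with GSK-LSD1 and 202 ± 23.7 CPM with DMSO), and the B7 relative HHLA2 fell by 0.76. With PRT220, 3 rose and 3 fell, near the share of all genes called (13.8% higher and 11.1% lower). CD70, the ligand of CD27, rose and averaged 24.6 ± 1.5 CPM with PRT220 and 14.8 ± 2.1 CPM with DMSO (log2 change 0.73, and 0.61 with the RRP9 term). PRT220 with GSK-LSD1 had 8 higher and 4 lower, MS023 had 0 and 3, MS023 with GSK-LSD1 had 9 and 6, MC4455 had 4 and 4, and MC4491 had 5 and 2.

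Of 19 tested genes (of 21) of the CD47 and SIRPA axis and other phagocytosis checkpoints, 9 rose and 4 fell with GSK-LSD1, with a median of 0.19. The member CD47 was among those that rose, and 17.6% of all genes were called higher and 15% lower. LRP1, the receptor that recognises calreticulin on a cell to be engulfed, averaged 124 ± 10.9 CPM with GSK-LSD1 and 27.0 ± 6.6 CPM with DMSO, a log2 rise of 2.20. The inhibitory receptor LILRB3 rose by 2.20 (SE 0.51) at a low level, with 3.09 ± 0.28 CPM with GSK-LSD1 and 0.65 ± 0.56 CPM with DMSO. Its relative LILRB1 rose with overlapping libraries, with 1.05 ± 0.37 and 0.42 ± 0.27 CPM. THBS1, which encodes a secreted ligand of CD47, averaged 3.49 ± 0.13 CPM with GSK-LSD1 and 1.43 ± 0.13 CPM with DMSO. With PRT220, 4 rose, CD47 among them, and 2 fell, where 13.8% of all genes were called higher and 11.1% lower. FYB1 and SIRPB1 rose by 0.79 and 0.51, while QPCTL, the enzyme that modifies CD47 so that SIRPA can bind it, fell by 0.55 (27.3 ± 1.7 CPM with PRT220 and 39.8 ± 4.4 CPM with DMSO), and all 3 were also called with the RRP9 term. The list had 10 higher and 3 lower with PRT220 and GSK-LSD1, 0 and 2 with MS023, 9 and 3 with MS023 and GSK-LSD1, 9 and 3 with MC4455, and 7 and 3 with MC4491.

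With GSK-LSD1 17.6% of all genes were called higher and 15% lower, and with PRT220 13.8% and 11.1%. Of 19 tested genes (of 20) of CD40 signalling and the noncanonical NF-kB pathway, 4 rose and 3 fell with GSK-LSD1, which is near that share. ICAM1, an adhesion molecule that this pathway induces, averaged 45.7 ± 4.1 CPM with GSK-LSD1 and 22.9 ± 5.4 CPM with DMSO, while the adaptor TRAF1 fell by 1.11 with PRT220 (9.45 ± 1.45 CPM with PRT220 and 20.4 ± 4.9 CPM with DMSO). Of 18 tested genes (of 20) of the interferon-gamma pathway and known regulators of CD274, 7 rose and 1 fell with GSK-LSD1, and 6 rose and 0 fell with PRT220. The gene that fell with GSK-LSD1 was MYC, by 0.57 on the log2 scale (210 ± 7.6 CPM with GSK-LSD1 and 312 ± 10.4 CPM with DMSO). CIITA, the master activator of MHC class II genes, averaged 60.1 ± 6.6 CPM with PRT220 and 116 ± 7.6 CPM with GSK-LSD1, against 38.4 ± 1.0 CPM with DMSO. JAK2, whose kinase carries the interferon-gamma signal, rose by 0.51 with PRT220 and by 0.36 with PRT220 and GSK-LSD1. Antigen presentation genes, the partners of CD86 on an antigen-presenting cell, had 9 of 15 tested (of 17) higher and 0 lower with GSK-LSD1, with a median of 0.69. CIITA is in this list too and was among the 9. HLA-DRA averaged 54.2 ± 1.9 CPM with GSK-LSD1, 17.4 ± 1.0 CPM with MS023 and 18.6 ± 1.8 CPM with PRT220, against 11.3 ± 0.5 CPM with DMSO, so this MHC class II gene rose also with the inhibitors that left CD86 near its DMSO level. With the RRP9 term the PRT220 changes of TRAF1, CIITA, JAK2 and HLA-DRA were -1.20, 0.66, 0.53 and 0.64, all called, and 4 in place of 6 genes of the interferon-gamma list were higher.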

How the data were processed

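Poly(A) RNA was sequenced from unstranded libraries, so reads of a gene and of an antisense gene that overlaps it cannot be told apart. The authors deposited estimated counts per gene and per transcript for 24 libraries, not scaled between libraries. The submitters' processing notes name GRCh38 and the tools STAR 2.7.3a, DESeq2 1.28.1, Salmon 1.2.1 and R 4.0.0, with no role for any of them. Estimated counts were rounded to whole numbers, filtered with filterByExpr, scaled by TMM and fitted over all 8 groups with the quasi-likelihood test of edgeR 4.0.16 in R 4.3.3, without a replicate block, with Benjamini-Hochberg adjustment. Transcripts were paired with genes through GENCODE 29 (167049 of 178398, with at least 96.6% of the reads of each library) and tested for usage with voom and diffSplice of limma 3.58.1, with Simes p-values per gene. The fits were also run on simulated counts, with the same spread set for all genes or transcripts and no RRP9 split. That run does not check the calls given here. DESeq2 1.42.0 and the settings listed in the closing section were run as alternatives. The RRP9 term for genes other than the members and the marker sum without LYZ were added after the data had been seen.

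Of the 24 pairs of libraries of 1 group, 0 were identical. The members and the 13 gene lists were chosen with earlier results of these data known. Beside the members, the text names genes of each list from the 4 called with the largest change, a few check genes, the 8 genes most like CD86 by Pearson's r of log2(CPM + 1), among genes of at least 5 CPM in their highest group, and transcripts with at least 10% of a member's reads in some group. Genes at or under 3 counts in both groups get no fold. Intervals are at 95%.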

Additional observations from a re-analysis of the deposited data

How the results depend on the processing

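Among differences of single members, 1404 of 1477 alternative values over 98 results kept their direction and their side of the threshold, 58 lost the call, 15 gained one and 0 reversed. For transcript usage these were 341 of 371, with 24 lost and 6 gained. The number of members called with PRT220 over DMSO was 1 with a term for low RRP9 and 1 in a fit of only the groups compared. With GSK-LSD1 over DMSO it was 2 without the count filter. With MS023 over DMSO it was 1 with the RRP9 term. With PRT220 and GSK-LSD1 over DMSO it was 2 in only the libraries with low RRP9. With MS023 and GSK-LSD1 over MS023 it was 2 in only the libraries with low RRP9 and 2 in only those at or above 5 CPM of RRP9. With MS023 and GSK-LSD1 over GSK-LSD1 it was 2 with the RRP9 term, 2 in a fit of only the groups compared and 0 in libraries at or above 5 CPM of RRP9. Members called for usage were 1 with the RRP9 term for MC4455 and 1 for MC4491. Fits to 1 side of the RRP9 split have fewer libraries: the low side holds 1 of DMSO and 1 of each combination, and the other side 1 of MS023 and 0 of PRT220, so counts from them compare arms of 1 library whose spread is taken from other groups, and they do not show dependence on RRP9. The cause of the other changes was not tested.

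Leaving out 1 library at a time gave 1 to 2 members with PRT220, 2 to 3 with GSK-LSD1, 3 to 4 with PRT220 and GSK-LSD1, 0 to 0 with MS023, 3 to 4 with MS023 and GSK-LSD1, 3 to 4 with MC4455 and 2 to 4 with MC4491 over DMSO. It gave 3 to 3 for PRT220 with GSK-LSD1 over PRT220, 1 to 1 over GSK-LSD1, 3 to 4 for MS023 with GSK-LSD1 over MS023 and 0 to 1 over GSK-LSD1. For usage over DMSO it gave 2 to 3 with PRT220, 0 to 1 with GSK-LSD1, 3 to 3 with PRT220 and GSK-LSD1, 0 to 2 with MS023, 0 to 1 with MS023 and GSK-LSD1, 1 to 2 with MC4455 and 0 to 3 with MC4491. Over all alternatives, the log2 change of CD86 over DMSO was 2.62 to 3.16 with GSK-LSD1, 2.77 to 3.37 with PRT220 and GSK-LSD1, 2.85 to 3.52 with MS023 and GSK-LSD1, 0.59 to 1.13 with MC4455 and 0.78 to 1.32 with MC4491.

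The letters A, B and C did not pair the libraries: deviations from the group means correlated at -0.50 to 0.40 over 84 pairs of the same letter, and 6 of 24 libraries correlated best with their own letter. A replicate block left all 21 member counts within 1.5 times and 152 of 154 single results on their side of the threshold, while HAVCR2 with GSK-LSD1 came to an adjusted p of 0.0545 and ICOSLG with MC4491 to 0.0442.

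Counts over all genes changed more in some alternatives. MS023 over DMSO called 375 genes, against 599 with the RRP9 term, 0 in a fit of only the groups compared and 634 by DESeq2. Fits to 1 side of the RRP9 split leave some groups with 1 library, so no counts over all genes are given for comparisons of those groups. MS023 with GSK-LSD1 over GSK-LSD1 called 1808 genes, against 1146 without the count filter and 2945 with the RRP9 term. MC4491 over DMSO called 5112, against 2963 in a fit of only the groups compared. The interaction of PRT220 with GSK-LSD1 called 90 genes, against 54 without the filter, 53 in a fit of only the groups compared and 197 by DESeq2. That of MS023 with GSK-LSD1 called 0, against 20 by DESeq2. MC4455 over MC4491 called 0, against 1 without the filter, 1 in libraries at or above 5 CPM of RRP9, 4 in a fit of only the groups compared and 19 by DESeq2. Depth limits CD80, CD274 and CD40, with at most 5, 12 and 36 counts in a library.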
